A study of Homo sapiens with 16 samples.

Results

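Scavenger receptors and C-type lectin receptors were followed as 10 genes, picked by symbol from the 23575 symbols of the count table and described in all 10 groups of the series. They were the scavenger receptors OLR1, MSR1, CD36, SCARB1, COLEC12 and CD163 and the C-type lectin receptors CLEC4E, CLEC5A, CLEC7A and CLEC12A. RNA was sequenced from HL-60, an established human promyelocytic leukaemia line of wild-type genotype, either differentiated toward neutrophil-like cells (dHL-60) or undifferentiated (uHL-60), to follow how both stages answer lipoteichoic acid (LTA), a cell wall glycolipid of Staphylococcus aureus. The dHL-60 groups were untreated, given 1 µg/ml LTA or given 10 µg/ml LTA, each for 4 h and for 24 h, with 2 libraries in each of 6 groups. The uHL-60 groups were given 1 µg/ml LTA or left untreated for the same times, with 1 library in each of 4 groups. The agent used to differentiate the cells was not given in the sources used here.

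Scavenger receptors take up modified lipoproteins, lipids, microbial envelope molecules and cell debris, and CD36 and MSR1 are known as receptors that bind lipoteichoic acid or help TLR2 to sense it. C-type lectin receptors of myeloid cells recognise glycans and glycolipids: CLEC4E, CLEC5A and CLEC7A signal for activation through the kinase SYK, the first through the adaptor FCER1G and the second through TYROBP, while CLEC12A carries an inhibitory motif. In blood, neutrophils and monocytes carry these lectins, whereas MSR1, CD36 and CD163 are better known from monocytes and macrophages.

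On GRCh38 OLR1 lies at chromosome 12, 10158301 to 10176266, CLEC7A at chromosome 12, 10116777 to 10130304, CLEC12A at chromosome 12, 9951268 to 10006150, CLEC4E at chromosome 12, 8533275 to 8540905, and CD163 at chromosome 12, 7470811 to 7503777. These 5 genes span 2.71 Mb, and 28.0 kb separate CLEC7A from OLR1, with 0 RefSeq genes starting in between. SCARB1 lies at chromosome 12, 124776856 to 124863864, CLEC5A at chromosome 7, 141927357 to 141946974, CD36 at chromosome 7, 80602207 to 80679274 and COLEC12 at chromosome 18, 316737 to 500701. Counts cover whole genes over their exons and do not separate untranslated regions.

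Promoter windows of 300 bases, 250 before to 50 after the annotated start, were read from a table of RefSeq promoters (GRCh38.p14), in which 6 of the 10 genes were matched. The 4 windows shown belong to genes whose levels moved with LTA: CLEC4E and CLEC5A, which were higher, and CLEC12A and COLEC12, which were lower at 4 h. They are CLEC4E (chr12:8540856-8541155, minus strand), CLEC5A (chr7:141946925-141947224, minus strand), CLEC12A (chr12:9971159-9971458, plus strand) and COLEC12 (chr18:500652-500951, minus strand), each written along its gene, with matches to any of the 4 motifs below in capitals. The CLEC12A window lies inside the annotated span of its gene, at a start downstream of the gene's first base.
CLEC4E: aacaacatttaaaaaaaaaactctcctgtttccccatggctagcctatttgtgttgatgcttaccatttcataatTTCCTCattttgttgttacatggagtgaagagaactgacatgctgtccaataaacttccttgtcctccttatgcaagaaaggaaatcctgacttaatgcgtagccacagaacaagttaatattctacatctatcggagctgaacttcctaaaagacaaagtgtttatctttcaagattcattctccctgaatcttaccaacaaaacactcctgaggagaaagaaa
CLEC5A: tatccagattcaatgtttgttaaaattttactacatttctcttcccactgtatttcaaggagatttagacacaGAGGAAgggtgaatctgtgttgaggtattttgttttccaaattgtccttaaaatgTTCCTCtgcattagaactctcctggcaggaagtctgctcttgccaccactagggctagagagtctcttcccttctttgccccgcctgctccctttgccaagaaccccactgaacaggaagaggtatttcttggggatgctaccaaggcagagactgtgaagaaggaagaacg
CLEC12A: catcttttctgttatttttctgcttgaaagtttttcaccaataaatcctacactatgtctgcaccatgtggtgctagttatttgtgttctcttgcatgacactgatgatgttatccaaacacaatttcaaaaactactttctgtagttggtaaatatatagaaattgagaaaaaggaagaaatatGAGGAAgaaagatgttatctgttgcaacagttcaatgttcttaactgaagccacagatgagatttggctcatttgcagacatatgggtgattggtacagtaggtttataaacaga
COLEC12: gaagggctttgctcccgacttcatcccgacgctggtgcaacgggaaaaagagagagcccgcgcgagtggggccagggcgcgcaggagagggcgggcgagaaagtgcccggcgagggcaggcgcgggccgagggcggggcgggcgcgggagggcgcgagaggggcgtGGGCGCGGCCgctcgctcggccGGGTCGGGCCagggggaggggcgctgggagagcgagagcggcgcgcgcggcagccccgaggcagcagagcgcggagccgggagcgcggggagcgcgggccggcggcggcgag
The motifs searched on both strands were GAGGAA (the core bound by PU.1, a myeloid transcription factor), GGG followed by 5 bases of any kind and CC (NF-κB), TGANTCA (AP-1) and TTGCNNNAA (C/EBP). No match overlapped another motif in these 4 windows. GAGGAA or its complement was present once in CLEC4E, beginning at base -175 from the start, 2 times in CLEC5A at -177 and -122, and once in CLEC12A at -65, and 27.9% of all 35116 RefSeq promoters of this length hold it. COLEC12 held the NF-κB motif 2 times, at -84 and -62, a motif present in 58.7% of all promoters. Neither TGANTCA (7.71% of promoters) nor TTGCNNNAA (9.21%) was found in the 4 windows. The base composition differed: 36.7% of bases were G or C in CLEC4E, 44.3% in CLEC5A and 34.0% in CLEC12A, but 79.7% in COLEC12, against a median of 58.7% over all promoters. A match is a description of letters, not a bound site.

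Libraries held 9653374 to 20157081 counts, and levels are given as CPM, the usual depth-scaled count, after TMM scaling of the library totals. Of 8 neutrophil markers 7 were higher and 0 lower in untreated dHL-60 than in uHL-60, with CXCR2 not called, beside 58.0% of all genes called, 29.7% higher and 28.3% lower. Of 7 promyelocyte markers 2 were higher and 3 lower, so the dHL-60 cells kept promyelocyte transcripts, at a summed 4877 to 22530 CPM over all dHL-60 groups against 23820 to 26550 CPM in uHL-60. Markers of other cell types were low or absent: 5 lymphocyte markers summed to at most 6.94 CPM, 5 dendritic cell markers to at most 71.4 CPM with CD207 at 0 in every group, and 6 red cell and platelet markers to at most 36.2 CPM. The 10 macrophage and monocyte markers summed to 560 to 621 CPM at 1 µg/ml and 487 to 572 CPM at 10 µg/ml against 181 to 203 CPM in untreated dHL-60 at 4 h, to 268 to 305 and 342 to 398 CPM against 110 to 112 CPM at 24 h, and to 21.7 to 26.0 CPM in uHL-60. Of the 5 that could be tested, 1 was higher and 2 lower at 4 h with 1 µg/ml, 2 and 3 with 10 µg/ml, 3 and 0 at 24 h with 1 µg/ml and 4 and 1 with 10 µg/ml, beside 38.7%, 41.3%, 21.2% and 42.6% of all genes called in this order. All 7 promyelocyte markers were lower with LTA at 24 h at either dose, beside 7.26% of all genes lower at 1 µg/ml and 19.0% at 10 µg/ml. At 4 h the 8 neutrophil markers summed to 2348 to 2783 CPM in untreated dHL-60. With LTA they reached 3675 to 4314 CPM at 1 µg/ml and 3441 to 3994 CPM at 10 µg/ml. Sums at 24 h were 1032 to 1048 CPM untreated, 1827 to 2127 CPM at 1 µg/ml and 2794 to 2920 CPM at 10 µg/ml. NCF1 and CYBB were higher and CXCR2 and MNDA lower at 4 h at either dose. ITGAM was also lower at 1 µg/ml, and CSF3R and FCGR3B at 10 µg/ml, FCGR3B from only 28 counts untreated. Of all genes 18.7% were higher and 20.1% lower at 1 µg/ml, and 20.0% and 21.3% at 10 µg/ml. At 24 h FPR1, NCF1, ITGAM, CYBB and MNDA were higher at either dose and CSF3R was lower at 1 µg/ml. There 13.9% of all genes were higher and 7.26% lower at 1 µg/ml, and 23.6% and 19.0% at 10 µg/ml. The red cell and platelet sum was 22.3 to 25.3 CPM at 10 µg/ml and 0.745 to 0.945 CPM at 1 µg/ml against 33.6 to 36.2 CPM untreated at 4 h. In uHL-60 C1QB was at 0 in every group, and MRC1 was at 0 in 6 of the 10 groups. The part of these markers in the results below was not tested. The labels do not state whether the libraries of a pair were grown separately. In the comparisons within dHL-60 and the interactions with cell state, p-values therefore reflect only the spread within pairs, which may be technical. The comparison of untreated cell states and the LTA test in uHL-60 assumed that a difference is the same at both times. In the former, p-values also reflect departures from this assumption, and in the latter, without pairs, they reflect only such departures. In bulk RNA, fewer cells of a type and less RNA per cell cannot be told apart.

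After 4 h with LTA, dHL-60 cells held more RNA of OLR1, CLEC4E, CLEC5A and CLEC7A and less of SCARB1, COLEC12 and CLEC12A than untreated dHL-60. The largest difference among the 7 tested genes was that of CLEC4E, 9.76-fold at 1 µg/ml and 9.46-fold at 10 µg/ml. MSR1, CD36 and CD163 had too few reads for the test. Of the 7 receptors tested, 4 were higher and 3 lower at 1 µg/ml, where 38.7% of all 11866 genes tested were called, 18.7% higher and 20.1% lower (edgeR's quasi-likelihood test, adjusted p under 0.05 over all genes). At 10 µg/ml 4 were again higher and 3 lower, where 41.3% of all genes were called, 20.0% higher and 21.3% lower. In every one of these comparisons both LTA libraries lay beyond both untreated libraries. This separation was not counted over all genes and is a description only, not support for the calls. The doses share the untreated pair and are therefore not independent of each other.

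OLR1 encodes the lectin-like receptor for oxidised low-density lipoprotein. It stood at 31.2 and 28.9 CPM in untreated dHL-60, at 117 and 161 CPM with 1 µg/ml and at 138 and 154 CPM with 10 µg/ml LTA at 4 h. All 4 treated libraries were above the untreated pair, and the doses overlapped. The log2 fold change was 2.21 ± 0.20 (SE; adjusted p = 2.18e-06) at 1 µg/ml and 2.29 ± 0.20 at 10 µg/ml.

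CLEC4E, the Mincle receptor for microbial and self glycolipids, had 11.7 and 11.0 CPM untreated, 116 and 105 CPM with 1 µg/ml and 110 and 104 CPM with 10 µg/ml at 4 h. CLEC5A, a TYROBP-coupled receptor that binds flaviviruses, had 571.5 and 569.5 CPM untreated, 1974 and 1755 CPM with 1 µg/ml and 2222 and 1892 CPM with 10 µg/ml. The untreated pairs of both genes were tight and the treated libraries stood clearly apart from them. The log2 fold changes at 1 and 10 µg/ml were 3.29 ± 0.25 (adjusted p = 5.47e-07) and 3.24 ± 0.25 for CLEC4E and 1.71 ± 0.14 (adjusted p = 7.48e-07) and 1.86 ± 0.14 for CLEC5A. Of the CLEC5A exon bases, 12% lie on the opposite strand of MGAM exons, and it is unknown here whether reads were counted by strand. MGAM had 1268 to 1569 counts with 1 µg/ml, 1255 to 1871 counts with 10 µg/ml and 433 to 590 counts untreated at 4 h, against 15894 to 22295, 20015 to 22518 and 5551 to 6647 counts of CLEC5A. The part of these shared bases in the CLEC5A counts was not tested.

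CLEC7A, the β-glucan receptor Dectin, differed least. It had 127 and 126 CPM untreated, 184 and 171 CPM with 1 µg/ml and 205 and 149.5 CPM with 10 µg/ml at 4 h. All treated libraries were higher, by 0.49 ± 0.17 on the log2 scale at either dose (adjusted p = 0.0403 and 0.0364). This call did not hold at 1 µg/ml without any 1 of the 4 libraries (adjusted p = 0.0775 to 0.135), nor at 10 µg/ml without untreated replicate 1, untreated replicate 2 or treated replicate 1 (0.0979, 0.107 and 0.370), nor with upper-quartile scaling (0.0899 and 0.0969).

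**Figure D1:**
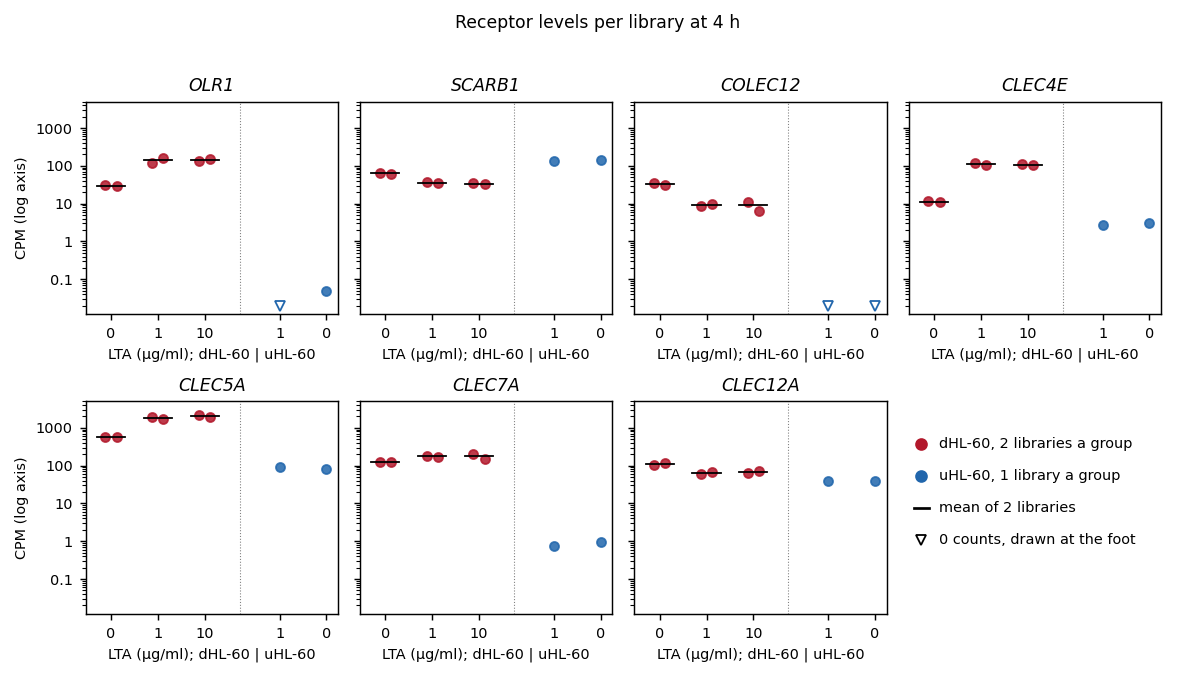
Levels of the 7 tested receptors at 4 h in CPM on a log axis, by LTA dose in dHL-60 (red, 2 libraries a group, bar at their mean) and in uHL-60 (blue, 1 library a group); open triangles mark 0 counts. OLR1, CLEC4E, CLEC5A and CLEC7A stand higher with LTA in dHL-60 and SCARB1, COLEC12 and CLEC12A lower; in uHL-60 CLEC5A is at 92.9 CPM with LTA and 83.3 CPM without.

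Of the receptors that were lower, COLEC12, a scavenger receptor with a collagen-like stalk and a C-type lectin domain, had 34.9 and 31.0 CPM untreated, 8.57 and 9.68 CPM with 1 µg/ml and 11.4 and 6.52 CPM with 10 µg/ml at 4 h. SCARB1, the receptor for high-density lipoprotein, had 63.7 and 61.7 CPM untreated, 36.6 and 35.2 CPM with 1 µg/ml and 34.5 and 33.3 CPM with 10 µg/ml. CLEC12A, the inhibitory lectin that recognises urate crystals, had 103 and 119 CPM untreated, 59.8 and 67.6 CPM with 1 µg/ml and 62.5 and 70.3 CPM with 10 µg/ml. No treated library of these 3 genes reached an untreated one. Other annotated genes overlap 7.43% of the COLEC12 and 4.55% of the CLEC12A exon bases on the opposite strand, so these counts carry the same uncertainty as those of CLEC5A. COLEC12 fell by 1.84 ± 0.22 (adjusted p = 1.87e-05) at 1 µg/ml and by 1.88 ± 0.22 at 10 µg/ml on the log2 scale. SCARB1 fell by 0.81 ± 0.13 (adjusted p = 0.000253) and 0.88 ± 0.13, and CLEC12A by 0.80 ± 0.18 (adjusted p = 0.0030) and 0.74 ± 0.18 (adjusted p = 0.0047). Without the 1st library of 10 µg/ml, CLEC12A fell by 0.66 with an adjusted p of 0.0535.

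After 24 h the picture differed in part: the lectins CLEC4E, CLEC5A and CLEC7A were again higher and CLEC12A again lower with LTA than in untreated dHL-60 of the same age, COLEC12 was now higher at 1 µg/ml, and OLR1 was close to absent in every group. At 1 µg/ml 5 receptors were higher and 1 lower, beside 21.2% of all genes called, 13.9% higher and 7.26% lower. At 10 µg/ml 4 were higher and 2 lower, beside 42.6% of all genes called, 23.6% higher and 19.0% lower. The groups of every called receptor did not overlap in either comparison. Such separation was not counted over all genes and is again a description only.

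CLEC4E had 2.03 and 0.448 CPM in the untreated libraries at 24 h, 10.1 and 10.7 CPM with 1 µg/ml and 31.2 and 25.6 CPM with 10 µg/ml. Its untreated libraries, with 38 and 6 counts, lay far apart, and the treated pairs were tight and ordered by dose. The log2 fold change was 2.96 ± 0.33 (adjusted p = 3.09e-05) at 1 µg/ml and 4.41 ± 0.32 (adjusted p = 2.27e-07) at 10 µg/ml. Without untreated replicate 1 these became 4.53 and 5.98, and without untreated replicate 2 they became 2.35 and 3.81, all still called.

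CLEC5A had 208 and 192 CPM untreated, 324 and 318 CPM with 1 µg/ml and 497 and 528 CPM with 10 µg/ml at 24 h. CLEC7A had 59.7 and 43.2 CPM untreated, 108 and 94.8 CPM with 1 µg/ml and 119 and 115 CPM with 10 µg/ml. Both genes kept their groups apart from the untreated pair. CLEC5A rose by 0.69 ± 0.14 (adjusted p = 0.00252) and 1.38 ± 0.14 (adjusted p = 4.08e-06), and CLEC7A by 0.99 ± 0.18 (adjusted p = 0.00137) and 1.21 ± 0.18 (adjusted p = 0.000125), on the log2 scale at 1 and 10 µg/ml.

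CLEC12A had 79.6 and 72.8 CPM untreated, 37.1 and 52.2 CPM with 1 µg/ml and 37.6 and 50.02 CPM with 10 µg/ml at 24 h. The treated libraries spread as widely within a dose as between doses but all lay under the untreated pair. CLEC12A fell by 0.76 ± 0.18 (adjusted p = 0.00817) at 1 µg/ml and 0.77 ± 0.18 (adjusted p = 0.00347) at 10 µg/ml. At 1 µg/ml it fell by 0.68 without untreated replicate 1 (adjusted p = 0.0654) and by 0.54 without treated replicate 1 (adjusted p = 0.127), so that call rests on each of those libraries.

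COLEC12 had 15.4 and 14.6 CPM untreated, 33.2 and 29.4 CPM with 1 µg/ml and 22.1 and 19.3 CPM with 10 µg/ml at 24 h. Both treated pairs were above the untreated pair, and the pair at the lower dose stood highest. The log2 fold change was 1.08 ± 0.20 (adjusted p = 0.00177) at 1 µg/ml, while at 10 µg/ml it was 0.49 ± 0.20 and missed the threshold (adjusted p = 0.0681), passing it without a filter on low counts (0.0459). SCARB1 had 108 and 128 CPM untreated, 96.2 and 99.5 CPM with 1 µg/ml and 85.6 and 79.7 CPM with 10 µg/ml. At 10 µg/ml SCARB1 fell by 0.49 ± 0.12 (adjusted p = 0.00609), or by 0.38 without untreated replicate 2 (adjusted p = 0.0615), and at 1 µg/ml its log2 fold change of -0.25 ± 0.12 was not called (adjusted p = 0.164).

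OLR1 had 1 and 0 counts in the untreated libraries at 24 h, 12 and 5 counts with 1 µg/ml and 16 and 31 counts with 10 µg/ml, which is 0.0535 and 0, 0.877 and 0.329, and 1.35 and 2.15 CPM. All treated libraries held more than the untreated ones, yet at levels far under those of any library at 4 h. With 1 untreated count in all, the ratio of treated to untreated counts was 18.9 (95% counting interval 2.96 to 789) at 1 µg/ml and 57.3 (9.80 to 2311) at 10 µg/ml. OLR1 passed the test at both doses (adjusted p = 0.0115 and 7.77e-05), but at 1 µg/ml not without untreated replicate 2 (0.0657) or treated replicate 1 (0.131).

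**Figure D2:**
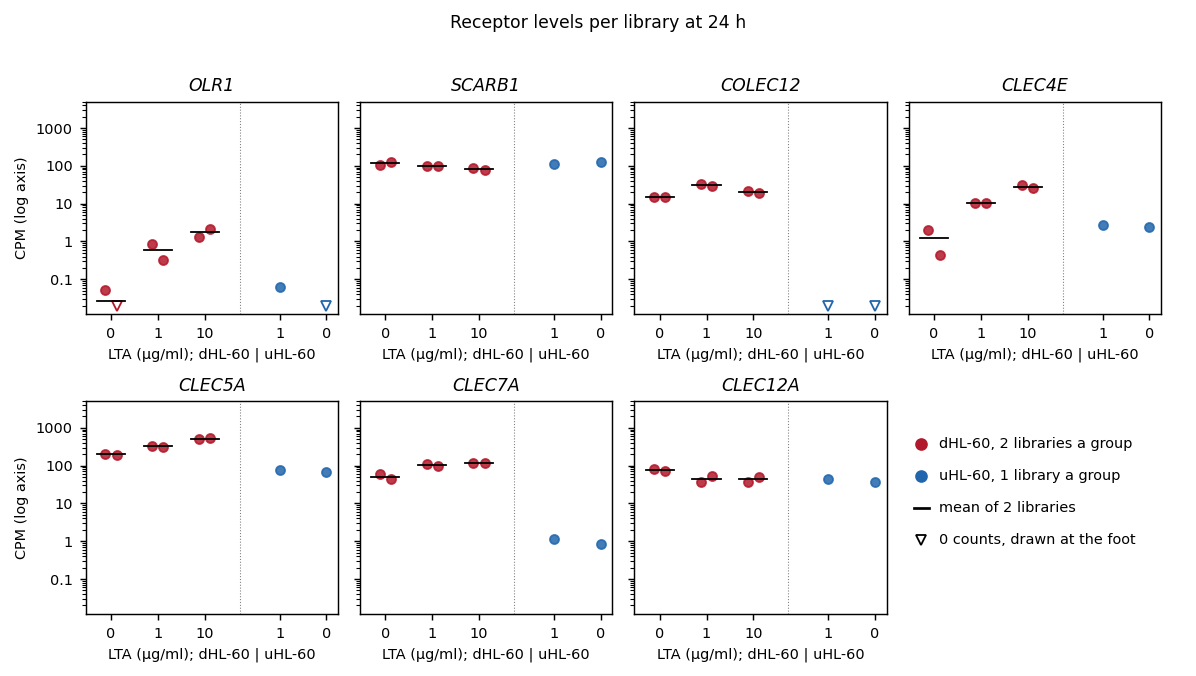
Levels of the 7 tested receptors at 24 h in CPM on a log axis, by LTA dose in dHL-60 (red, 2 libraries a group, bar at their mean) and in uHL-60 (blue, 1 library a group); open triangles mark 0 counts. CLEC4E climbs with dose in dHL-60, COLEC12 is highest at 1 µg/ml, and OLR1 stays at or under 2.15 CPM.

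The remaining scavenger receptors were at the edge of detection. MSR1, the macrophage class A receptor (chromosome 8, 16107881 to 16192651), had 1 count in each dHL-60 library with 1 µg/ml LTA at 24 h and 0 counts in every other library. CD36, the class B receptor for fatty acids and oxidised lipoproteins, had 0 to 5 counts in each of the 12 dHL-60 libraries, 28 in all, and 0 in uHL-60. CD163, the macrophage receptor that takes up haptoglobin bound to haemoglobin, had 53 counts over the dHL-60 libraries and 0 over the uHL-60 libraries, at least 8.60-fold more where the floor was 3 counts in all uHL-60 libraries in sum. By the same floor CD36 was at least 4.55-fold higher in dHL-60. Both bounds pool untreated and LTA-treated libraries, and only dHL-60 was given 10 µg/ml. Over untreated libraries alone, edgeR's quasi-likelihood test without a filter on low counts called neither gene (adjusted p = 0.112 for CD36 and 0.0943 for CD163). CD163 had 6 and 14 counts with 1 µg/ml, 7 and 6 counts with 10 µg/ml, and 3 and 2 counts untreated at 24 h. At 4 h it had 0 and 0 counts with 1 µg/ml, 4 and 7 counts with 10 µg/ml, and 1 and 3 counts untreated. The 4 h ratio to untreated was 0 (95% counting interval 0 to 1.56) at 1 µg/ml and 2.84 (0.842 to 12.2) at 10 µg/ml. At 24 h it was 4.44 (95% counting interval 1.62 to 15.2) at 1 µg/ml and 3.17 (1.06 to 11.4) at 10 µg/ml. The same test run without a filter on low counts gave adjusted p = 0.165 and 0.347 at 4 h and 0.110 and 0.223 at 24 h, and 0.700 for 10 against 1 µg/ml at 4 h (unadjusted p = 0.00254), so none of these differences was called. For the CD163 response to 1 µg/ml at 24 h minus 4 h, that test gave an adjusted p of 0.0504 (unadjusted p = 0.0083). This was not called either, and it rests on 0 counts with 1 µg/ml at 4 h. No change in MSR1, CD36 or CD163 was called at this depth in any comparison that could be tested. The test could not be run within uHL-60 or for the difference between cell states in response, nor for MSR1 between untreated cell states.

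The 10 µg/ml dose was next compared with 1 µg/ml. At 4 h 0 of the 7 tested receptors were called by edgeR's quasi-likelihood test, 0 had an unadjusted p under 0.05 and 0 were called by DESeq2, beside 1 gene called of 11866 (0.00843%, higher at 10 µg/ml). The log2 differences between doses at 4 h lay between -0.08 for SCARB1 (nominal 95% interval -0.33 to 0.18) and 0.15 for CLEC5A (-0.11 to 0.41). The widest interval was that of COLEC12, -0.49 to 0.42 around -0.03. At 24 h CLEC4E was higher at 10 than at 1 µg/ml by 1.46 ± 0.25 (adjusted p = 0.00596) and CLEC5A by 0.68 ± 0.14 (adjusted p = 0.0139), beside 3.82% of all genes called, 3.03% higher and 0.792% lower. Both calls needed 3 of the 4 libraries: without either library of 1 µg/ml, or without the 1st of 10 µg/ml, the adjusted p was 0.0553 to 0.0913 for CLEC4E and 0.0855 to 0.151 for CLEC5A. COLEC12 was lower at 10 than at 1 µg/ml by 0.59 ± 0.20 without being called (adjusted p = 0.111, or 0.0283 with no filter on low counts and 0.0460 in a fit of these groups alone), and OLR1, with 47 against 17 counts, had a ratio of 3.03 (95% counting interval 1.71 to 5.64) and an adjusted p of 0.0683, which DESeq2 put at 0.0101 and the test with no filter at 0.00146. The log2 difference of OLR1, 1.58, was 2.41 without the 1st and 1.01 without the 2nd library of 1 µg/ml, and 1.84 without the 1st and 1.19 without the 2nd of 10 µg/ml.

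**Figure D3:**
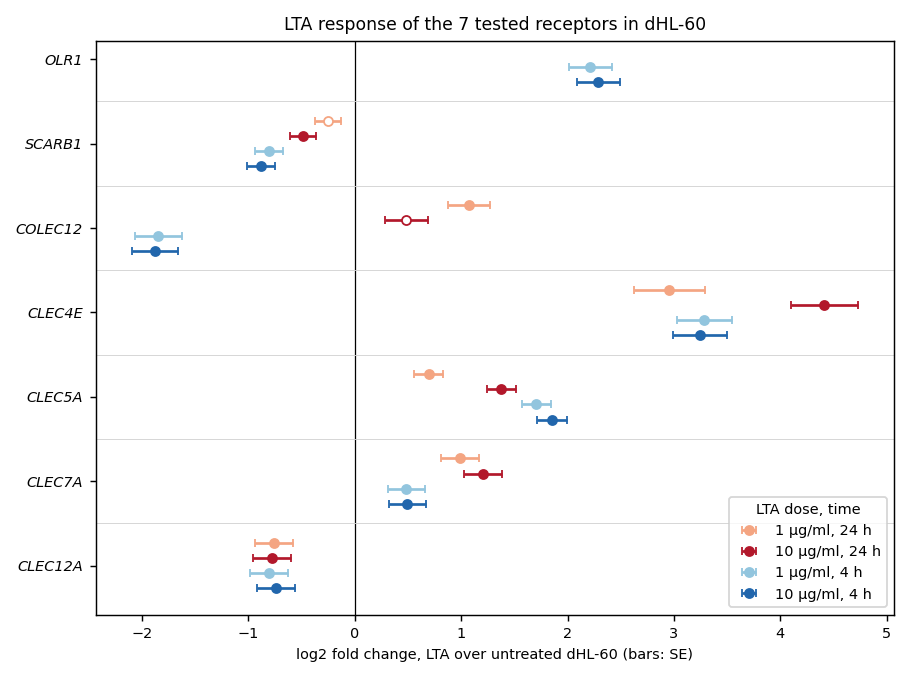
Log2 fold change of LTA over untreated dHL-60 with its SE for the 7 tested receptors, by dose and time; filled points passed an adjusted p under 0.05 and open points did not. OLR1 at 24 h is left out because its untreated pair held 1 count. COLEC12 lies above 0 at 24 h, with 1.08 at 1 µg/ml, and below it at 4 h, with -1.84, and CLEC4E is at 4.41 with 10 µg/ml and 2.96 with 1 µg/ml at 24 h.

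Whether a receptor's response to LTA differed between 24 h and 4 h was tested as an interaction, 24 h minus 4 h. At 1 µg/ml 3 receptors were called, 2 higher and 1 lower, beside 20.7% of all genes, 13.3% higher and 7.41% lower. At 10 µg/ml 4 receptors were called, all higher, beside 33.7% of all genes, 19.7% higher and 14.0% lower. COLEC12 had the clearest difference, with a response higher at 24 h by 2.92 ± 0.29 at 1 µg/ml (adjusted p = 2.49e-05) and by 2.36 ± 0.30 at 10 µg/ml (adjusted p = 6.82e-05). The response of CLEC5A at 1 µg/ml was smaller at 24 h by 1.01 ± 0.19 on the log2 scale (interaction -1.01, adjusted p = 0.00214), and at 10 µg/ml the interaction of -0.48 ± 0.19 was not called (adjusted p = 0.0685). SCARB1 at 1 µg/ml (0.55 ± 0.18, adjusted p = 0.0413) and CLEC4E (1.17 ± 0.42, 0.0439) and CLEC7A (0.71 ± 0.25, 0.0401) at 10 µg/ml were called narrowly, and each lost its call without any 1 of 6 or 7 of the 8 libraries. CLEC4E was at 2.74 without the 1st and 0.56 without the 2nd untreated library of 24 h. OLR1 was the 4th called at 10 µg/ml (adjusted p = 0.0206), on 1 untreated count at 24 h, and lost its call without either untreated library of 24 h or the 2nd treated one (0.0557 to 0.0937), with values of 5.15, 2.53 and 2.77 against 3.17. CLEC12A gave 0.05 ± 0.25 and -0.04 ± 0.25, so its response could not be told apart between the times.

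In untreated dHL-60 the receptors themselves moved with time. Of the 7 tested, SCARB1 was higher at 24 h than at 4 h and the other 6 were lower, beside 40.9% of all genes called, 17.8% higher and 23.1% lower. No groups of these 7 receptors overlapped, but this was not counted over all genes and is a description only. These untreated pairs are also the references of the LTA comparisons, so these values are not independent of those comparisons. OLR1 had 1 count at 24 h and 640 counts at 4 h over each pair, 960-fold less at 24 h by their ratio (95% counting interval 172 to 37990). CLEC4E was lower at 24 h by a log2 fold change of -3.06 ± 0.34, which was -4.63 without the 1st and -2.45 without the 2nd library of 24 h. CLEC5A changed by -1.505 ± 0.14, CLEC7A by -1.29 ± 0.18 and COLEC12 by -1.13 ± 0.20, and SCARB1 rose by 0.92 ± 0.12 (adjusted p = 8.17e-05). CLEC12A changed by -0.54 ± 0.18 (adjusted p = 0.0257), a call lost without the 2nd library of 4 h or either library of 24 h (adjusted p = 0.0671 to 0.134). Summed over all 10 genes, levels were 452 to 473 CPM untreated, 606 to 611 CPM with 1 µg/ml and 794 to 820 CPM with 10 µg/ml at 24 h. At 4 h the sums were 943 to 948, 2306 to 2497 and 2411 to 2785 CPM, most of each being CLEC5A.

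Untreated dHL-60 carried several of these receptors at levels above those of uHL-60. Of the 7 receptors tested over the 6 untreated libraries, OLR1, COLEC12, CLEC5A, CLEC7A and CLEC12A were higher in dHL-60, SCARB1 was lower and CLEC4E was not called, beside 58.0% of all genes called, 29.7% higher and 28.3% lower. With 1 uHL-60 library a group, the state of the cells and any batch that those libraries share cannot be told apart. Whether both sets were counted alike was not given in the sources used here.

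COLEC12 had 0 counts in all 4 uHL-60 libraries against 195 to 362 counts in each untreated dHL-60 library. It was at least 293-fold higher in untreated dHL-60 over both times, with the floor set at 3 counts in the untreated uHL-60 libraries in sum. CLEC7A had 59.7 and 43.2 CPM in dHL-60 against 0.823 CPM in uHL-60 at 24 h, and 127 and 126 CPM against 0.940 CPM at 4 h. The difference was 6.52 ± 0.35 on the log2 scale (adjusted p = 2.17e-06), 91.5-fold, with every dHL-60 library above every uHL-60 library. CLEC5A was higher in dHL-60 by 2.08 ± 0.29 (adjusted p = 0.000424), or 2.71 without the 24 h and 1.51 without the 4 h uHL-60 library, and CLEC12A by 1.23 ± 0.20 (adjusted p = 0.000859). CLEC12A had 79.6 and 72.8 CPM in dHL-60 against 37.9 CPM in uHL-60 at 24 h, and 103 and 119 CPM against 38.3 CPM at 4 h.

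OLR1 had 641 counts in untreated dHL-60 and 1 in untreated uHL-60, a ratio of 475 (95% counting interval 85.03 to 18810). Of those counts 640 came from the 4 h pair, and without the 4 h uHL-60 library the call was lost (adjusted p = 0.439). SCARB1 was lower in dHL-60 by 0.69 ± 0.24 (log2 fold change -0.69, adjusted p = 0.0378): it had 108 and 128 CPM in dHL-60 against 126.5 CPM in uHL-60 at 24 h, and 63.7 and 61.7 CPM against 139 CPM at 4 h. At 24 h dHL-60 lay on both sides of uHL-60, and without the 4 h uHL-60 library the value was -0.11 (adjusted p = 0.673). It was also lost without either dHL-60 library of 4 h, without the 1st of 24 h (adjusted p = 0.0646 to 0.129) and with upper-quartile scaling (0.0705). CLEC4E gave 0.44 ± 0.69 (adjusted p = 0.601), with 2.03 and 0.448 CPM in dHL-60 against 2.42 CPM in uHL-60 at 24 h, and 11.7 and 11.0 CPM against 3.07 CPM at 4 h. Without the 24 h uHL-60 library CLEC4E was called higher by 1.82 (adjusted p = 0.00351), and without the 4 h one its value was -0.89.

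**Figure D4:**
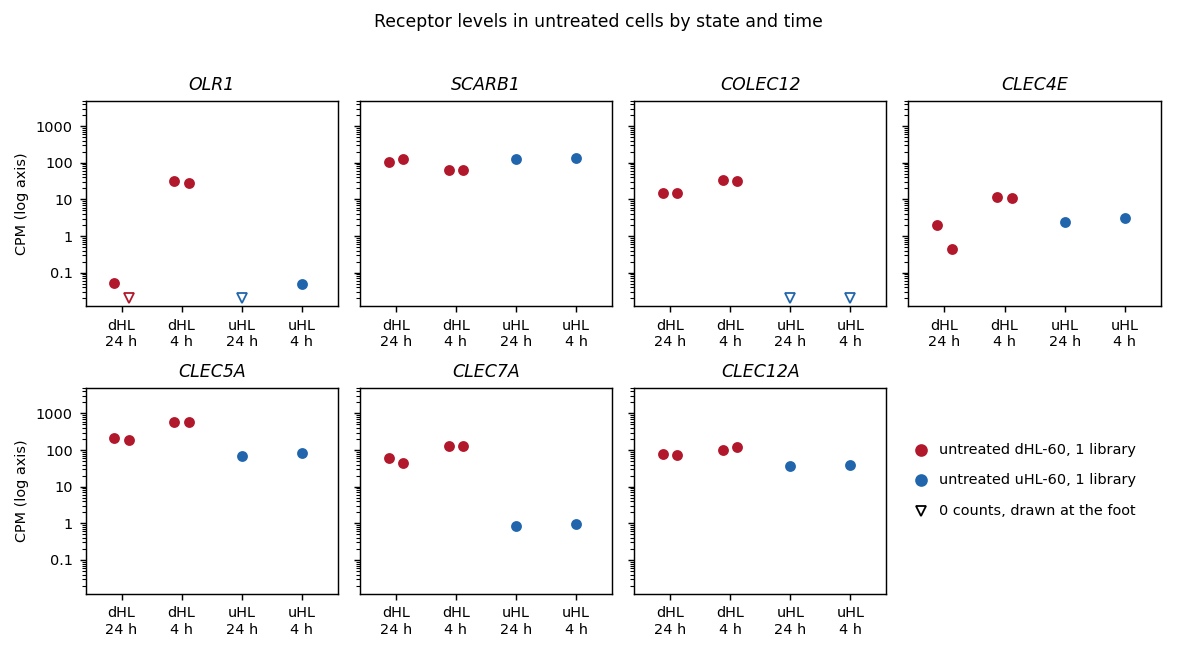
Levels of the 7 tested receptors in untreated cells in CPM on a log axis, for dHL-60 (red) and uHL-60 (blue) at 24 h and at 4 h, 1 point a library; open triangles mark 0 counts. COLEC12 is at 0 counts in uHL-60, CLEC7A stands at 43.2 to 127 CPM in dHL-60 and under 1 CPM in uHL-60, and OLR1 is high only in the 4 h pair of dHL-60.

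In uHL-60 no receptor was called with 1 µg/ml LTA. Of 5 receptors that passed the filter, 0 were called over both times by edgeR's quasi-likelihood test, 0 had an unadjusted p under 0.05 and 0 were called by DESeq2, beside 0.209% of all 11020 genes, 0.0998% higher and 0.109% lower. DESeq2 called 1 gene in all, against 23 with edgeR. There is 1 library a group, so no difference within a time has a replicate check. CLEC4E had 2.65 CPM with LTA against 3.07 CPM untreated at 4 h, a ratio of 0.862 (95% counting interval 0.576 to 1.283), and 2.801 against 2.42 CPM at 24 h, a ratio of 1.16 (0.753 to 1.78). CLEC5A had 92.9 against 83.3 CPM at 4 h, a ratio of 1.11 (1.04 to 1.20), and 75.3 against 69.5 CPM at 24 h, a ratio of 1.08 (1.00 to 1.17). CLEC12A had ratios of 1.00 (0.903 to 1.11) and 1.20 (1.08 to 1.33), SCARB1 of 0.997 (0.944 to 1.05) and 0.894 (0.841 to 0.95), and CLEC7A, with 13 to 19 counts a library, of 0.795 (0.361 to 1.70) and 1.36 (0.656 to 2.86) at 4 h and 24 h. These intervals cover counting error only.

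The difference between the responses of dHL-60 and uHL-60 to 1 µg/ml LTA was tested for 5 receptors, with each lone uHL-60 library assumed to vary like the dHL-60 replicates. OLR1, COLEC12, MSR1, CD36 and CD163 had 0 to 1 counts in the uHL-60 libraries of a time and gave no estimate. At 4 h the dHL-60 response was larger for CLEC4E by 3.50 ± 0.52 (adjusted p = 0.00095) and for CLEC5A by 1.55 ± 0.23 (adjusted p = 0.000986), and lower for SCARB1 by -0.80 ± 0.22 (adjusted p = 0.0306), beside 10.3% of all genes called, 5.43% higher and 4.91% lower. At 24 h it was larger for CLEC4E by 2.73 ± 0.59 (adjusted p = 0.0331), beside 1.63% of all genes, 1.35% higher and 0.278% lower. That CLEC4E value was 4.33 without the 1st and 2.15 without the 2nd untreated dHL-60 library, and the call was lost without either treated one (adjusted p = 0.0803 and 0.0534). SCARB1 at 4 h lost its call without the 1st untreated or either treated dHL-60 library (adjusted p = 0.0716 to 0.0850). CLEC12A gave -0.81 ± 0.31 at 4 h (adjusted p = 0.124) and -1.03 ± 0.31 at 24 h (adjusted p = 0.119), neither called, though the 24 h value passed with no filter on low counts (0.0137).

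Levels of different genes were set against each other per kilobase of exon. CLEC5A led in all 10 groups, at 138 CPM per kb in untreated dHL-60, 452 with 1 µg/ml and 498 with 10 µg/ml at 4 h, and at 48.5, 77.7 and 124 CPM per kb at 24 h. At 4 h with LTA, CLEC4E, OLR1 and CLEC7A followed at 42.3 to 47.8 CPM per kb, with no clear order among the 3 genes, and at 24 h without LTA it was CLEC12A at 23.4, SCARB1 at 15.2 and CLEC7A at 12.3 CPM per kb. In untreated uHL-60 SCARB1 came close to CLEC5A, with 16.3 against 16.8 CPM per kb at 24 h and 17.9 against 20.2 CPM per kb at 4 h.

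The signalling partners of the lectin receptors were counted as a list of their own. Of 14 adaptors, kinases and phosphatases, all tested, 5 were higher and 4 lower at 4 h with 1 µg/ml LTA, 5 and 3 with 10 µg/ml, 5 and 0 at 24 h with 1 µg/ml and 7 and 0 with 10 µg/ml. In these 4 comparisons 38.7% (18.7% higher, 20.1% lower), 41.3% (20.0%, 21.3%), 21.2% (13.9%, 7.26%) and 42.6% (23.6%, 19.0%) of all genes were called, and the same shares stand behind the lists that follow. FCER1G, the adaptor of CLEC4E, had log2 fold changes of 0.53 ± 0.17 and 0.64 ± 0.17 at 4 h and 2.15 ± 0.18 and 3.14 ± 0.19 at 24 h, at 1 and 10 µg/ml, and it was lower by -1.87 ± 0.18 at 24 h than at 4 h in untreated cells. CARD9, which carries the SYK signal to NF-κB, fell by 1.29 ± 0.16 and 1.41 ± 0.16 at 4 h, and SYK fell by 0.61 ± 0.14 and 0.66 ± 0.14 at 4 h but rose by 0.54 ± 0.14 and 0.57 ± 0.14 at 24 h. TYROBP, the adaptor of CLEC5A, rose by 1.00 ± 0.21 at 10 µg/ml and 24 h (adjusted p = 0.00199). It was not called at 1 µg/ml and 24 h (0.25 ± 0.21), nor at 4 h (-0.26 ± 0.21 at 1 µg/ml and -0.19 ± 0.21 at 10 µg/ml). In untreated cells TYROBP changed by -0.96 ± 0.21 from 4 h to 24 h. Untreated dHL-60 exceeded uHL-60 in 6 of the 14 genes and fell short in 1, beside 58.0% of all genes called, 29.7% higher and 28.3% lower. TYROBP was higher by 3.65 ± 0.32, FCER1G by 3.09 ± 0.54 and CARD9 by 1.87 ± 0.23.

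Related receptors outside the 10 genes were counted the same way. Of 21 other C-type lectin receptors 13 were tested, with 3 higher and 4 lower at either dose at 4 h, 2 and 3 at 24 h with 1 µg/ml and 7 and 3 with 10 µg/ml, beside 38.7%, 41.3%, 21.2% and 42.6% of all genes called in this order. CLEC4D, a neighbour of CLEC4E in function that binds mycobacterial glycolipid, rose by 3.48 ± 0.37 and 3.56 ± 0.37 at 4 h, and the activation marker CD69 by 5.33 ± 0.64 and 5.92 ± 0.63, although its untreated libraries held only 12 counts. CLEC10A, a receptor for galactose-type sugars, rose by 3.85 ± 0.40 and 4.28 ± 0.40 at 24 h. Of 13 other scavenger receptors 6 were tested, with 2 higher and 2 lower at 4 h with 1 µg/ml, 3 and 2 with 10 µg/ml, 2 and 0 at 24 h with 1 µg/ml and 4 and 0 with 10 µg/ml, beside the same shares. CXCL16, a membrane chemokine that also binds oxidised lipoprotein, rose by 2.02 ± 0.16 and 2.01 ± 0.16 at 4 h and by 3.54 ± 0.20 and 4.58 ± 0.20 at 24 h, and the endocytic receptor LRP1 fell by 2.67 ± 0.30 and 2.66 ± 0.29 at 4 h. CD68 was the 1 scavenger receptor of 7 tested that was lower in untreated dHL-60 than in uHL-60, beside 28.3% of all genes. Its log2 fold change was -5.49 ± 0.34, with at most 0.721 CPM against at least 16.9 CPM. However, 81.7% of the CD68 exon bases are shared with other annotated genes on the same strand, so its counts are uncertain.

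Of the 4 genes of the TLR2 receptor complex, 2 were higher and 1 lower at either dose at 4 h and all 4 were higher at either dose at 24 h. For this list and the next lists, 38.7% and 41.3% of all genes were called at 4 h and 21.2% and 42.6% at 24 h, at 1 and 10 µg/ml. TLR2 rose by 2.61 ± 0.16 and 2.69 ± 0.17 at 4 h and by 1.32 ± 0.16 and 2.02 ± 0.16 at 24 h. Of 9 tested genes of lipid uptake and PPARG targets, 4 were higher and 1 lower at 4 h with 1 µg/ml, 5 and 1 with 10 µg/ml, 2 and 0 at 24 h with 1 µg/ml and 3 and 2 with 10 µg/ml. ACSL1, which activates fatty acids, rose by 3.06 ± 0.19 and 3.20 ± 0.19 at 4 h, and the nuclear receptor PPARG by 1.14 ± 0.22 and 1.74 ± 0.21 at 24 h. Of 9 genes that handle haem and iron, downstream of haemoglobin uptake, 3 were higher and 4 lower, 4 and 3, 2 and 1, and 4 and 1 in the same order of comparisons, with the haem oxygenase HMOX1 rising by 2.36 ± 0.41 and 3.50 ± 0.39 at 24 h. With upper-quartile scaling the median of all genes moved by -0.118 at 1 µg/ml and -0.134 at 10 µg/ml at 4 h, and the share of all calls that were higher was 37.0% and 36.4%, against 48.2% and 48.5% with TMM scaling. That share was 55% against 65.7% at 24 h with 1 µg/ml, and 41.9%, or 63% with DESeq2, against 52.5% for the dHL-60 minus uHL-60 response at 4 h, where upper-quartile scaling moved the median by -0.102. For untreated dHL-60 over uHL-60 the median moved by 0.124.

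The patterns most like those of the receptors over the 12 dHL-60 libraries were ranked by Pearson correlation of log2 CPM among 9398 genes, as a description only, since the libraries share groups and depth. OLR1 ran closest to ID2 and STX3 (r = 0.987 each) and VSIG10L (0.986), CLEC4E to SPP1 (0.994), C3AR1 (0.990) and LINC01094 (0.988), and CLEC5A to IL1A and PDGFA (0.997 each) and DUSP10 (0.995). CLEC7A ran closest to LPAR1 (0.986), the NADPH oxidase gene CYBB (0.983) and RASSF2 (0.980), and SCARB1 ran close to STEAP3 (0.992) and EXOSC5 (0.991). COLEC12 and CLEC12A had looser neighbours: DOCK11 (0.955), GIMAP1 (0.940) and AMZ2 (0.936) for COLEC12, and SUZ12P1 (0.962), S100PBP (0.946) and KBTBD11 (0.942) for CLEC12A.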

How the data were processed

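RNA of 16 HL-60 libraries was analysed from the table of raw read counts per gene that the authors deposited, with no normalization. Per the labels, libraries were made from total RNA with a stranded mRNA kit. Build GRCh38 and the tools HISAT2 2.1.0, featureCounts 2.0.1, Subread, fastp 0.20.0, edgeR 3.36.0 and DESeq2 1.28.0 stand in the submitters' processing notes without role or sequence of use. The strand setting was not given in the sources used here, and genes that overlap another on the opposite strand are therefore uncertain. Groups came from the sample descriptions. The uHL-60 columns follow another sort order of symbols and were realigned, which moved 1343 of 23575 symbols and 0 of the 10 receptors. At the moved symbols the correlation with dHL-60 was 0.252 as deposited and 0.896 after realignment, against 0.938 at the others.

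Counts were tested with edgeR 4.0.16 in R 4.3.3 (quasi-likelihood F test, two-sided, TMM scaling, filterByExpr, Benjamini-Hochberg adjustment over all genes tested, threshold 0.05). Comparisons within dHL-60 used its 12 libraries in 6 groups. The 6 untreated libraries served to compare the cell states and the 4 uHL-60 libraries to test LTA in uHL-60, both with an additive term for time. Interactions with cell state used all 16 libraries. An adjusted p is from this test where no other tool is given. The SE is the log2 fold change divided by the root of F. Intervals of log2 values are nominal 95% intervals from this SE and a normal quantile. They are narrower than intervals matched to the F test would be. Ratios of counts carry 95% exact binomial intervals, which cover counting error only. Against a group at 0 counts a fold is a lower bound from a floor of 3 counts over the group. Exon lengths and overlaps came from GENCODE v29, gene positions and promoters from RefSeq. DESeq2 1.42.0, upper-quartile scaling, no filter, a replicate block, fits of the compared groups alone, each library left out and the columns as deposited were tried as alternatives. The scripts were tested on simulated data.

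The receptors, the 6 gene lists and 6 marker lists, the tests and the rule for naming other genes (up to 3 called genes of a list with the largest change, with the adaptors FCER1G, TYROBP, SYK and CARD9 and with TLR2 always allowed, and the 3 best correlated genes) were chosen with earlier results of these data known. Of the best correlated genes, 1 is not reported here. Genes with 3 or fewer counts in the compared group were passed over in naming, except among the cell type markers. Replicate numbers were not taken to pair the dHL-60 libraries in the main test. Over 15 pairs of groups the correlation of same-numbered deviations ran from -0.204 to 0.383 (median 0.0882), and 5 were over 0.1. These values do not settle whether the libraries were paired. Libraries of a pair differed beyond sampling noise (chi-square per degree of freedom 10.3 to 18.9) and were kept apart.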

Additional observations from a re-analysis of the deposited data

Results flagged for a closer look

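The responses below differed between times or between cell states by the test of the difference itself. In dHL-60 with 1 µg/ml LTA, the response at 24 h minus that at 4 h was 2.92 for COLEC12, -1.01 for CLEC5A and 0.55 for SCARB1 on the log2 scale. The SCARB1 difference was called at an adjusted p of 0.0413 and missed the threshold without any 1 of 7 of the 8 libraries (0.0623 to 0.161), with DESeq2 (0.0839), with no filter on low counts (0.0936) and in the fit of the compared groups alone (0.117). With 10 µg/ml the same difference was 3.17 for OLR1, 2.36 for COLEC12, 1.17 for CLEC4E and 0.71 for CLEC7A. The OLR1 value is a fitted one that rests on 1 count in the untreated 24 h pair. It was lost without either untreated library of 24 h or the 2nd of 10 µg/ml at 24 h (adjusted p = 0.0557 to 0.0937), where its value was 5.15, 2.53 and 2.77. CLEC4E lost its call without any 1 of 6 libraries, and its value was 2.74 without the 1st and 0.56 without the 2nd untreated library of 24 h. CLEC7A also lost its call without any 1 of 6 libraries, where its value ranged from 0.48 to 0.98 over all 8.

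Between cell states, the response to 1 µg/ml in dHL-60 minus that in uHL-60 was 3.50 for CLEC4E, 1.55 for CLEC5A and -0.80 for SCARB1 at 4 h, and 2.73 for CLEC4E at 24 h. SCARB1 lost its call without the 1st untreated library or either treated dHL-60 library of 4 h (adjusted p = 0.0716 to 0.0850). CLEC4E at 24 h lost it without either treated library (0.0803 and 0.0534), and its value was 4.33 without the 1st and 2.15 without the 2nd untreated dHL-60 library. The causes of these differences were not tested.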

How the results depend on the processing

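Each receptor's value was recomputed under every alternative, 402 times with another setting and 388 times with 1 library left out. With another setting 379 were counted as keeping their direction and side of the threshold, 8 lost the call, 8 gained one and 7 changed sign. With 1 library left out these numbers were 309, 54, 3 and 22. Any value left without an adjusted p was counted as kept. The 402 include the uHL-60 columns as deposited, where realignment moved 0 of the 10 receptors, so little change could arise there. Of the numbers of receptors called, 2 at 24 h for 10 against 1 µg/ml became 4 with no filter on low counts and 0 to 2 with 1 library left out. The 4 called for the 10 µg/ml response at 24 h minus 4 h became 2 in the fit of the compared groups alone and 1 to 3 with 1 library left out. The 1 called for the dHL-60 minus uHL-60 response at 24 h became 2 with no filter and 0 to 1 with 1 library left out. All other such counts stayed within 1.5 times with another setting. With the replicate block the receptors called numbered 7, 7, 6 and 7 for 1 and 10 µg/ml at 4 h and at 24 h, where COLEC12 passed at 10 µg/ml (adjusted p = 0.0474), and the block changed no other call.

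Values that changed sign with another setting were, for CLEC7A, 10 against 1 µg/ml at 4 h, -0.012 with upper-quartile scaling, -0.0011 with DESeq2, -0.0079 with the replicate block and -0.0063 in the fit of the compared groups; for CLEC12A, 24 h minus 4 h, -0.036 in the fit of the compared groups at 1 µg/ml and 0.022 with upper-quartile scaling at 10 µg/ml; and for CLEC4E in uHL-60, 0.0028 with upper-quartile scaling. With 1 library left out, 10 against 1 µg/ml at 4 h ranged from -0.14 to 0.32 for OLR1, -0.49 to 0.31 for COLEC12, -0.12 to 0.023 for CLEC4E, -0.24 to 0.21 for CLEC7A and -0.028 to 0.16 for CLEC12A, and CLEC12A at 24 h from -0.24 to 0.24. The response at 24 h minus 4 h ranged from -0.94 to 1.24 for CLEC4E at 1 µg/ml, and for CLEC12A from -0.22 to 0.26 at 1 µg/ml and -0.26 to 0.089 at 10 µg/ml. SCARB1 ranged from -0.19 to 0.030 for dHL-60 minus uHL-60 at 24 h, and CLEC4E from -0.89 to 1.82 for untreated dHL-60 over uHL-60. Of these ranges the last was called at 1.82 (adjusted p = 0.00351) and that of CLEC4E at 1 µg/ml at -0.94 (0.0443). The cause was not tested. Over all genes, 453 calls for 10 against 1 µg/ml at 24 h became 753 with DESeq2 and 1354 with no filter, 800 in the fit of the compared groups alone, and 191, 49 and 73 without the 1st or 2nd library of 1 µg/ml or the 1st of 10 µg/ml. For the dHL-60 minus uHL-60 response at 24 h 205 calls became 397 with DESeq2 and 652 with no filter, and 109, 110 and 88 without the 1st or 2nd untreated or the 1st treated dHL-60 library. Without 1 library, 2513 calls for 1 µg/ml at 24 h became as few as 1139, 4903 for 10 µg/ml at 4 h as few as 3181, 4853 for untreated 24 h against 4 h as few as 3138, and 2461 and 4001 for the 1 and 10 µg/ml responses at 24 h minus 4 h as few as 1614 and 2660. The 1 call for 10 against 1 µg/ml at 4 h became 2 with DESeq2, 22 with no filter, 2 in the fit of the compared groups and 2 without the 2nd library of 10 µg/ml. Groups of 2 libraries and lone uHL-60 libraries limit every test, and MSR1, CD36 and CD163 are limited by depth.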
